A study of Sorghum bicolor with 9 samples.

Results

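The genes described are 3 sorghum genes from enzyme families with members at the entry of the C4 carbon cycle. They are phosphoenolpyruvate (PEP) carboxylase 3 (PEPC3, SORBI_3010G160700), PEP carboxylase 2 (PEPC2, SORBI_3002G167000) and chloroplastic pyruvate, phosphate dikinase 1 (PPDK1, SORBI_3009G132900). They were chosen by gene identifier, and all 3 were found among the 34366 genes of the deposited mRNA table. Leaves of Sorghum bicolor, a C4 cereal, were sequenced as total RNA in strand-specific libraries at 3 levels of watering: normal (the control), mildly dry and severely dry (3 libraries per level). The labels name no genotype, plant age or duration of drought. Nor do they say whether 1 plant or several stand behind a group, so p-values cover the spread among these libraries, which could be technical in origin.

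In a C4 leaf, PEP carboxylase in the cytosol of mesophyll cells fixes bicarbonate onto PEP to give oxaloacetate. After carbon dioxide has been released again in the bundle sheath, PPDK in the mesophyll chloroplast rebuilds PEP from pyruvate, at the cost of ATP. In sorghum PEPC3 is the isoform of C4 photosynthesis, while other members of the family supply carbon skeletons to general metabolism. In maize, a single PPDK gene makes both a chloroplastic and a cytosolic transcript from separate promoters, and counts per gene would not tell such transcripts apart.

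PEPC3 lies on chromosome 10 (47244445 to 47253575), PEPC2 on chromosome 2 (52122128 to 52127601) and PPDK1 on chromosome 9 (48725978 to 48738853). These positions cover whole gene models as deposited, and their build is not named in the labels or headers. No other gene of the mRNA table overlaps any of the 3 loci, and 0 lncRNA transcripts overlap them or carry their identifiers. Libraries held 20772692 to 38711314 counts on mRNA genes. The lowest count of a library was 503911 for PEPC3, 181116 for PPDK1 and 803 for PEPC2. Counting error alone would give relative SDs of 0.141%, 0.235% and 3.53% at these counts, so the spread between libraries set the precision.

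Some libraries stood apart from their groups. The first principal component of log2 CPM, with 28.7% of the variance, placed mild drought 2 (coordinate 123) and control 3 (75.9) farthest from the rest. Severe drought 1 and 2 lay at 36.7 and 28.7 and the other 5 libraries at -61.7 to -46.2. The summed FPKM of 22 leaf markers (chlorophyll a-b binding proteins and photosystem I subunits) was 21244 to 41549 in these 4 libraries and 8669 to 14783 in the other 5. On the second principal component, with 17.8% of the variance, severe drought 1 stood apart at -127. All other libraries lay at -18.4 to 50.2 on it. The summed FPKM of 9 bundle sheath markers was 2609 to 2952 in the control, 1717 to 2326 in mild drought and 1657 to 3234 in severe drought. As mesophyll markers, 19 genes named carbonic anhydrase or NADP-malate dehydrogenase were taken, 9 of them under 1 FPKM on average. They summed to 1244 to 1915 FPKM in the control, 1773 to 2019 in mild drought and 1623 to 2885 in severe drought. This list includes mitochondrial forms. Its most abundant genes (SORBI_3003G234200, SORBI_3003G234400 and SORBI_3007G166300) are also described below, so the sum is no separate readout from them. The 1 root marker was at 0 to 0.294 FPKM in every library. Of 13 guard cell markers, 9 were under 1 FPKM on average. The 13 summed to 37.3 to 39.0 FPKM in the control, 16.1 to 31.8 in mild drought and 15.8 to 33.0 in severe drought. The summed FPKM of 11 vascular markers, 7 of them under 1 FPKM on average, was 277 to 330 in the control, 242 to 348 in mild drought and 194 to 241 in severe drought. Severe drought and control did not overlap in the vascular and guard cell sums, and neither did they for PEPC3 below. Mild drought and control did not overlap in the guard cell sum either. The part of these sums in the results below was not tested. In bulk tissue, fewer cells of a type and less RNA per cell cannot be told apart.

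PEPC3 and PPDK1 were among the most abundant leaf transcripts in all 9 libraries. PEPC3 ranked between 15 and 28 of 34366 genes by FPKM and held 1.58% to 4.01% of the counts on mRNA genes. PPDK1 ranked between 9 and 56 and held 0.468% to 2.27%. PEPC2 ranked between 3382 and 8078. Its FPKM was 97.5 to 567 times lower than that of PEPC3 in the same library.

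The order of PPDK1 and PEPC3 depended on the length used. By FPKM, PPDK1 was above PEPC3 in 8 of 9 libraries, the exception being mild drought 2. By counts it was above PEPC3 in 2 of 9, control 1 and 2. The deposited FPKM values set 1.82 to 1.83 times as many PEPC3 counts against 1 FPKM as PPDK1 counts, so PEPC3 was divided by a longer effective length. For PEPC2 that factor against PPDK1 was 1.00 to 1.01. Both orders are therefore given. Within 1 gene the factor is shared by all libraries and does not enter the comparison of water levels.

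PEPC3 had similar levels in the control libraries and more scattered ones in mild and severe drought. It stood at 2752, 2458 and 2493 FPKM in control 1 to 3. In mild drought it stood at 3041, 2292 and 4075 FPKM. In severe drought it stood at 4049, 5351 and 2821 FPKM. All 3 severe drought libraries were thus above all 3 control libraries, although severe drought 3 lay only just above control 1. Mild drought 1 and 3 lay above the control libraries and mild drought 2 below them. The means were 2568 ± 161 FPKM in the control, 3136 ± 896 in mild drought and 4074 ± 1265 in severe drought (SD, n = 3 each).

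PPDK1 did not separate the groups. It stood at 5243, 4912 and 2652 FPKM in control 1 to 3, and at 3508, 1236 and 4546 FPKM in mild drought 1 to 3. In severe drought it stood at 4633, 5524 and 3629 FPKM. Mild drought 2 was the lowest of the 9 and control 3 the second lowest, and these are the libraries farthest out on the first principal component. The means were 4269 ± 1410.2 FPKM in the control, 3097 ± 1693 in mild drought and 4595 ± 948 in severe drought (SD, n = 3 each). Between the highest and the lowest library PPDK1 differed 4.47-fold and PEPC3 2.33-fold.

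PEPC2 also overlapped between all groups. It stood at 10.9, 7.64 and 12.6 FPKM in the control, at 9.06, 23.5 and 9.40 in mild drought and at 11.8, 9.44 and 8.16 in severe drought. Mild drought 2 was the highest library, where PPDK1 was lowest. The means were 10.4 ± 2.503 FPKM in the control, 13.99 ± 8.23 in mild drought and 9.80 ± 1.85 in severe drought (SD, n = 3 each).

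**Figure D1:**
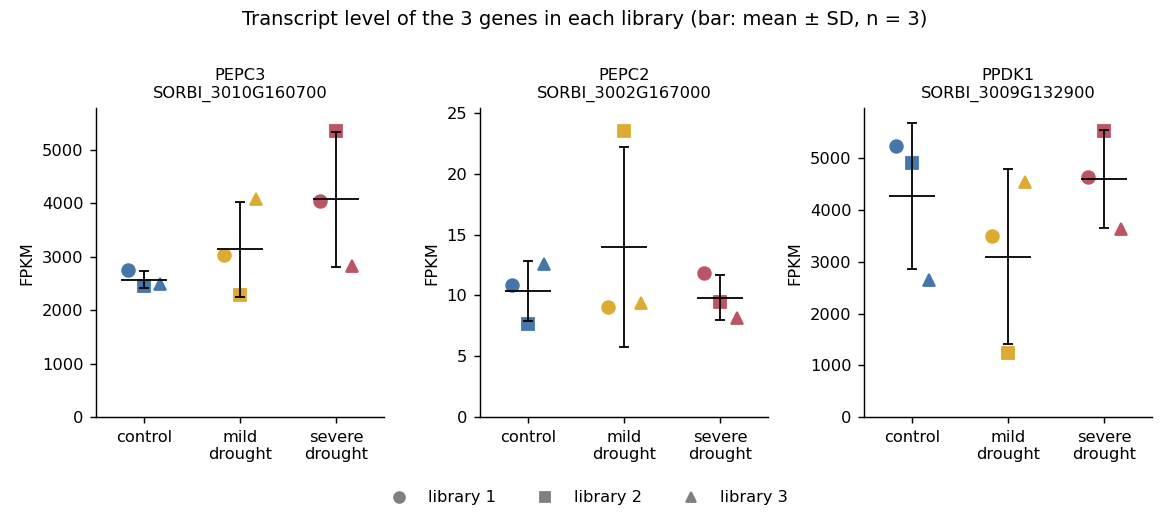
Deposited FPKM of PEPC3, PEPC2 and PPDK1 in each of the 9 libraries by water level, with a separate linear axis from 0 for each gene and the mean ± SD of 3 libraries as a bar. Marker shape gives the library number within a group and does not pair libraries. PEPC3 in severe drought (2821 to 5351) lies above the control (2458 to 2752), while PPDK1 and PEPC2 overlap between groups.

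Counts were then compared between water levels with edgeR's quasi-likelihood test across 22080 genes, all 9 libraries in 1 fit, with TMM scaling and Benjamini-Hochberg adjustment. None of the 3 genes passed an adjusted p of 0.05 in any of 4 comparisons, and neither did any other gene (0 called, 0% in each). At an unadjusted edgeR p under 0.05, mild drought against control gave 1414 genes (6.4%, with 3.34% higher and 3.07% lower). Severe drought against control gave 1914 (8.67%, with 4.02% higher and 4.65% lower). Severe against mild drought gave 815 (3.69%, with 1.35% higher and 2.34% lower), and both drought levels pooled against control 1931 (8.75%, with 3.92% higher and 4.82% lower). None of the 3 genes was among them. DESeq2 called 208 (0.942%), 337 (1.53%), 23 (0.104%) and 419 (1.9%) genes in these comparisons, again without any of the 3. Groups that did not overlap in scaled counts were also counted. Every library was higher for 6.2% and lower for 6.38% of genes in mild drought against control, and for 7.64% and 9.82% in severe drought against control. For severe against mild drought these shares were 2.99% and 4.83%, and for pooled drought against control 2.37% and 3.24%. Of the 12 values of the 3 genes, 1 was of this kind, PEPC3 in severe drought against control.

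For PEPC3, severe drought gave the largest difference of the 3 genes in the comparisons with the control. Its scaled count was 1.97-fold higher in severe drought than in the control (log2 0.98 ± 0.60 SE, 95% interval -0.38 to 2.33, edgeR adjusted p = 0.70). On the deposited FPKM the log2 difference was 0.62 (limma, adjusted p = 0.514). DESeq2 gave a log2 difference of 0.98 with an unadjusted p of 0.00714 and an adjusted p of 0.186. Without severe drought 2 the edgeR difference was 0.66, and without severe drought 3 it was 1.18. In mild drought against control the log2 difference was 0.33 ± 0.59 (interval -1.01 to 1.67), and without mild drought 3 it was -0.02. Severe against mild drought gave 0.65 ± 0.59 (interval -0.70 to 2.00).

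For PPDK1, the log2 difference was -0.39 ± 0.66 in mild drought against control (interval -1.89 to 1.11, edgeR adjusted p = 0.987). Without mild drought 2 it was 0.03. In severe drought against control it was 0.42 ± 0.66 (interval -1.08 to 1.92, edgeR adjusted p = 0.914), and in severe against mild drought 0.81 ± 0.66 (interval -0.70 to 2.32). In both drought levels pooled against control the estimate was 1.01-fold, with an interval of 0.411-fold to 2.49-fold.

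For PEPC2, the log2 differences were 0.38 ± 0.32 in mild drought against control and 0.22 ± 0.32 in severe drought against control (edgeR adjusted p = 0.919 and 0.905). Without mild drought 2 the first was -0.07. In severe against mild drought the difference was -0.17 ± 0.32, and 0.28 without mild drought 2. The interval in severe drought against control was -0.50 to 0.94. With library totals in place of TMM that difference was -0.0012, but this scaling also moved the median of all genes by -0.21.

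The order of the mean levels was therefore control, mild, severe for PEPC3 and mild, control, severe for PPDK1 by FPKM. In neither gene did neighbouring levels differ beyond the spread of their libraries. The mild drought and severe drought comparisons share the control libraries, so their values are given side by side and do not support each other. In severe drought against control, FPKM gave lower log2 differences than scaled counts for all 3 genes. In limma on log2(FPKM + 1) PEPC3 was at 0.62, PPDK1 at 0.15 and PEPC2 at -0.06. In edgeR they were at 0.98, 0.42 and 0.22. A lower mean FPKM in severe drought can thus go with scaled counts that are not lower.

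**Figure D2:**
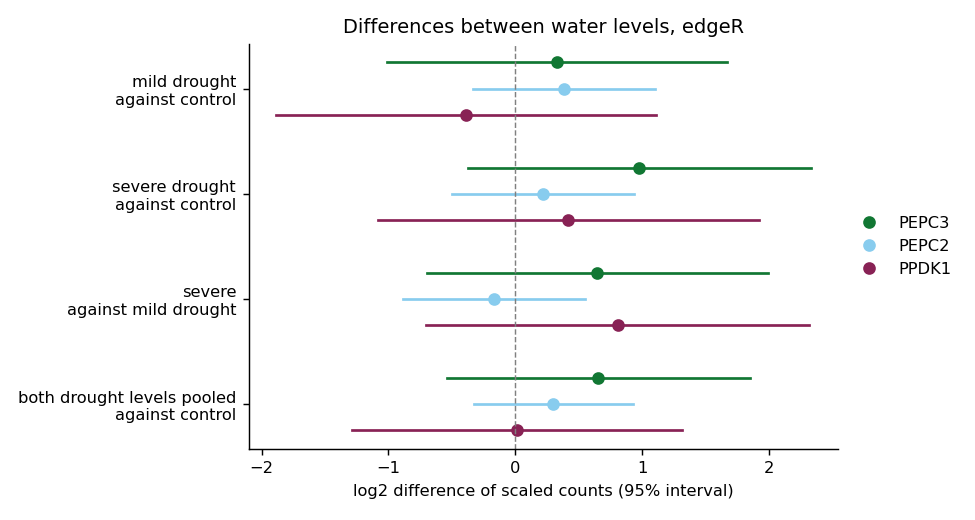
log2 differences of TMM-scaled counts (points) with 95% intervals (lines) from edgeR for PEPC3, PEPC2 and PPDK1 in the 4 comparisons, with a dashed line at 0. All 12 intervals include 0, and that of PEPC3 in severe drought against control runs from -0.38 to 2.33.

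The balance of the 2 abundant enzymes was followed within each library, where no scaling between libraries enters. The PPDK1 to PEPC3 ratio of FPKM was 1.91, 2.00 and 1.06 in control 1 to 3. It was 1.15, 0.539 and 1.12 in mild drought 1 to 3, and 1.14, 1.03 and 1.29 in severe drought 1 to 3. Control 1 and 2 were above all 6 drought libraries, and control 3 lay among them. The log2 ratio averaged 0.01 ± 0.45 over both drought levels (n = 6) and 0.67 ± 0.51 in the control (n = 3), a difference of -0.66 (SD given, exact permutation test, two-sided, p = 0.119, adjusted p = 0.476 over 8 tests). The smallest p this design allows is 0.0238. The difference was -0.85 in mild drought and -0.47 in severe drought against control (exact permutation p = 0.3 each, where 0.1 is the smallest possible). Leaving out any 1 library kept the pooled difference between -0.95 and -0.48, and the value without control 3 was the lowest.

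Within the PEP carboxylase family PEPC3 held nearly all of the signal. The family has 6 genes described as PEP carboxylase, of which 5 passed the filter on low counts. PEPC3 held 98.9 ± 0.503% of the summed FPKM of the family in severe drought and 98.1 ± 0.224% in the control (SD, n = 3 each). Each severe drought library was above each control library, but severe drought 3 (98.43%) only just above control 3 (98.39%). The difference of 0.813 percentage points gave an exact permutation p of 0.1, the smallest that 3 libraries against 3 allow (adjusted p = 0.476). PEPC3 itself enters this share, so it is no separate readout from the PEPC3 levels above. In mild drought the share was 98.7%, 97.0% and 99.0% in libraries 1 to 3.

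**Figure D3:**
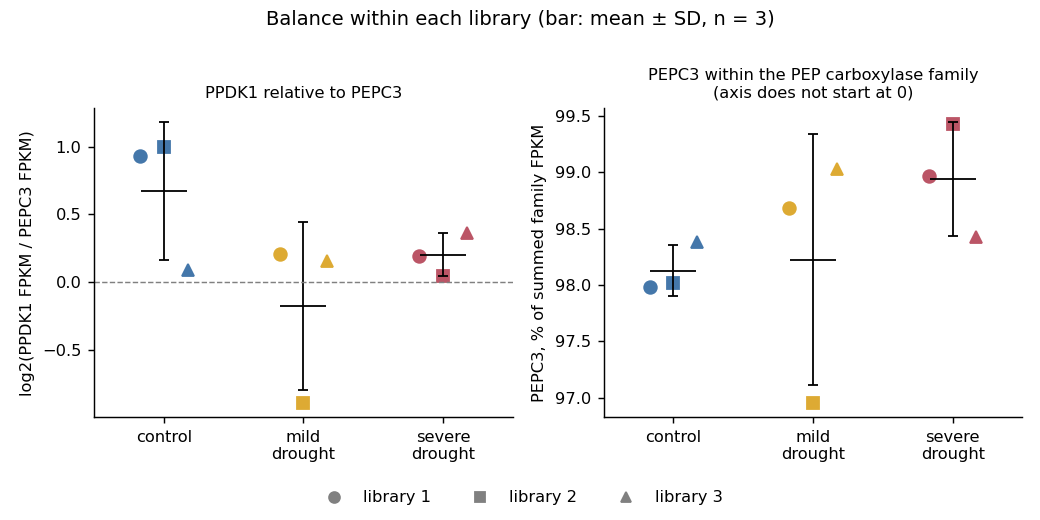
Left, log2 ratio of PPDK1 FPKM to PEPC3 FPKM in each library; right, share of PEPC3 in the summed FPKM of the PEP carboxylase family in percent, on an axis that does not start at 0. Bars are mean ± SD of 3 libraries. The log2 ratio is 0.93 and 1.00 in control 1 and 2, 0.09 in control 3 and -0.89 in mild drought 2, and the share lies between 97.0% and 99.4%.

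The other PEP carboxylase genes were low and none passed in any comparison. PEP carboxylase 1 (SORBI_3004G106900, chromosome 4, 10201753 to 10208601) was the next most abundant, with 23.0 ± 8.08 FPKM in severe drought and 31.6 ± 8.74 in the control (log2 difference of scaled counts -0.16 ± 0.29). The gene described as the housekeeping isozyme (SORBI_3003G301800, chromosome 3, 63252659 to 63260241) had 2.46 to 7.40 FPKM, highest in mild drought 2, as was PEPC2. A second gene described as PEP carboxylase 2 (SORBI_3007G106500, chromosome 7, 38044938 to 38050518) had 2.05 to 5.90 FPKM. PEP carboxylase 4 (SORBI_3003G100600) had at most 0.142 FPKM and did not pass the filter. PPDK2 (SORBI_3001G326900, chromosome 1, 61372602 to 61380996), the second PPDK gene, had 1.51 to 2.86 FPKM.

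Genes of these families resemble each other in sequence, and how reads that match several of them were counted is not known from the labels or headers. PEPC2 had 0.0972% to 0.565% of the counts of PEPC3, and PPDK2 0.0347% to 0.21% of those of PPDK1. The highest of these shares were both in mild drought 2. A few misassigned reads of the abundant gene would thus weigh on the rare one, and levels of PEPC2 and PPDK2 are uncertain to that extent. In mild drought 2, PEPC2 had its highest FPKM while PEPC3 had its lowest. By raw counts PEPC3 was not at its lowest there (612867, against 530933 in control 2 and 503911 in severe drought 3). Mild drought 2 was, however, the library with the most counts on mRNA genes (38711314). In scaled counts PEPC3 was at its lowest in mild drought 2, at 14159 CPM. The part of misassigned reads in these levels was not tested.

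Both enzymes are also controlled by modification of the protein. PEP carboxylase kinase phosphorylates PEP carboxylase, which lowers its inhibition by malate. The PPDK regulatory protein switches PPDK off in the dark and on in the light by adding and removing a phosphate. Of 3 PEP carboxylase kinase genes and 3 PPDK regulatory protein genes, 0 passed over all genes in any comparison.

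PEP carboxylase kinase 2 (SORBI_3004G338000, chromosome 4, 66988608 to 66990112) was the most abundant kinase gene. It had 278, 108 and 231 FPKM in mild drought 1 to 3, against 107, 131 and 63.3 FPKM in control 1 to 3. Mild drought 1 and 3 were above every control library, and mild drought 2 was among them. The log2 difference of scaled counts was 1.07 ± 0.45 (edgeR unadjusted p = 0.042, adjusted p = 0.77). In severe drought it had 116, 160 and 95.1 FPKM (log2 0.61 ± 0.45 against control).

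The first of 2 genes described as PEP carboxylase kinase 1 (SORBI_3004G219900, chromosome 4, 56987603 to 56989088) had 29.7, 93.7 and 48.5 FPKM in mild drought, against 15.96, 13.5 and 35.0 in the control. The log2 difference was 1.38 ± 0.62 (edgeR unadjusted p = 0.053, adjusted p = 0.776), and control 3 lay above mild drought 1. In severe drought its levels were 15.97, 25.2 and 67.0 FPKM. The second (SORBI_3006G148300, chromosome 6, 50998975 to 51001507) was nearly silent in 7 libraries, at 0.0405 to 0.643 FPKM. It reached 21.9 FPKM in mild drought 2 and 3.30 in control 3, the same libraries in which PPDK1 was lowest.

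The 3 PPDK regulatory protein genes lie close together on chromosome 2, between 69518671 and 69540708. SORBI_3002G324400 had 55.4 FPKM in mild drought 2 and 88.8 in control 3, and 109 to 179 in the other libraries. SORBI_3002G324500 had 9.21 FPKM in mild drought 2 and 53.0 to 100.1 in the others. SORBI_3002G324700 had 24.9 to 53.3 FPKM, with severe drought 2 the lowest and mild drought 2 next. In mild drought 2 the first 2 of these genes were thus at their lowest together with PPDK1. Their log2 differences in mild drought against control were 0.06 ± 0.44, -0.85 ± 0.64 and -0.26 ± 0.25 in the order given.

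**Figure D4:**
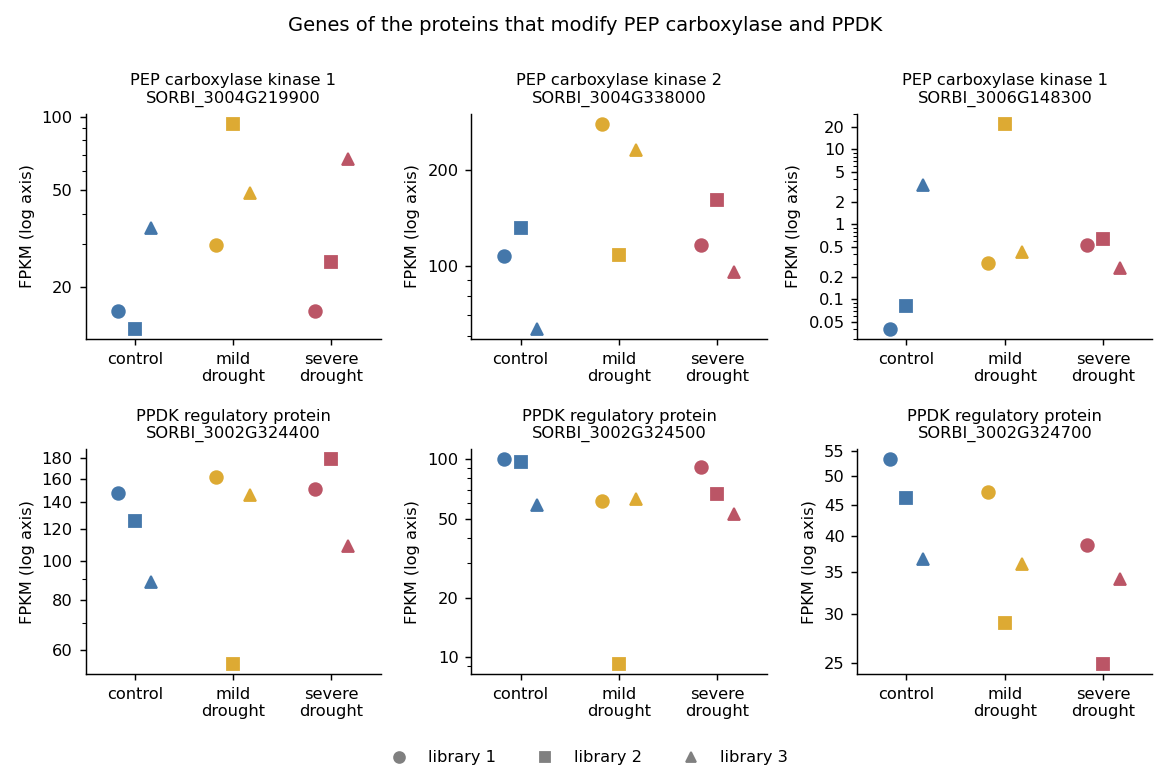
FPKM of the 3 PEP carboxylase kinase genes (top) and the 3 PPDK regulatory protein genes (bottom) in each library by water level, on log axes that differ between panels. Each point is 1 library, and marker shape gives its number within a group. In mild drought 2, SORBI_3006G148300 stands at 21.9 and SORBI_3002G324500 at 9.21.

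Other genes of the cycle were read from lists taken from the protein names, with 112 genes besides the 3, of which 99 were tested. None passed over all genes. At an unadjusted edgeR p under 0.05, 4 were higher and 7 lower in mild drought against control (11.1%, beside 6.4% of all genes), and 8 were higher and 5 lower in severe drought (13.1%, beside 8.67% of all genes). In severe against mild drought 3 were higher and 0 lower (3.03%, beside 3.69% of all genes). Pooled drought against control gave 5 higher and 6 lower (11.1%, beside 8.75% of all genes). The median log2 difference of the 99 was -0.12 in mild and 0.05 in severe drought, beside 0.02 and -0.02 over all genes tested.

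Carbonic anhydrase supplies the bicarbonate that PEP carboxylase uses. The 2 most abundant of 10 tested genes adjoin each other on chromosome 3. SORBI_3003G234200 (57297987 to 57310502) had 782, 1172 and 669 FPKM in severe drought, against 546, 389 and 736 FPKM in the control. SORBI_3003G234400 (57311562 to 57316959) had 524, 819 and 363 FPKM, against 313, 208 and 392 FPKM in the control. In FPKM the groups overlapped for both genes, with control 3 above severe drought 3. In scaled counts every severe drought library was above every control library, with log2 differences of 0.97 ± 0.45 and 1.23 ± 0.39 (edgeR adjusted p = 0.598 and 0.447). Such a separation in this direction held for 7.64% of all genes. Of the 10 tested carbonic anhydrases, 6 had a log2 difference above 0 and 4 below 0 in severe drought against control.

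The product of PEP carboxylase is reduced by malate dehydrogenase or transaminated. NADP-malate dehydrogenase 1 (SORBI_3007G166300), the chloroplast enzyme that turns oxaloacetate into malate, had 466 ± 172 FPKM in severe drought and 428 ± 76.2 in the control (log2 of scaled counts 0.45 ± 0.44). The cytoplasmic malate dehydrogenase (SORBI_3001G219300) had 235 ± 25.4 FPKM in severe drought and 259 ± 44.3 in the control. Its log2 difference of scaled counts was of the other sign (0.16 ± 0.20). Chloroplastic aspartate aminotransferase (SORBI_3004G331700) had 95.7 FPKM in mild drought 2 and 136 in control 3, its lowest libraries, as for PPDK1. The cytoplasmic form (SORBI_3003G303300) differed by log2 0.48 ± 0.17 in severe drought against control (edgeR adjusted p = 0.498). Alanine aminotransferase 2 (SORBI_3001G260800) had 15.5 ± 8.40 FPKM in severe drought and 4.22 ± 0.975 in the control (log2 2.19 ± 0.55, edgeR adjusted p = 0.374). Another gene of that name, SORBI_3002G375800, was lower in severe drought by FPKM. It had 7.89, 8.11 and 6.03 FPKM there, against 17.8, 9.18 and 10.7 FPKM in the control. Both genes lie outside the rule for named genes and were named after their values were seen.

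Of the decarboxylases, the main chloroplastic NADP-malic enzyme (SORBI_3003G036200) had 927 ± 172 FPKM in severe drought and 1130 ± 235 in the control. The lower FPKM mean was not seen in the tested measure (log2 of scaled counts 4.6e-05 ± 0.40). A second gene of that name (SORBI_3009G108700) had 113 ± 33.5 FPKM in severe drought and 155 ± 22.2 in the control (-0.17 ± 0.24). PEP carboxykinase (SORBI_3001G432800, chromosome 1, 71152961 to 71158082), which makes PEP from oxaloacetate, had 71.2, 62.9 and 91.0 FPKM in the control, 35.2, 40.1 and 34.6 FPKM in mild drought and 57.4, 33.9 and 23.9 FPKM in severe drought. All 6 drought libraries were below all control libraries, which held in this direction for 3.24% of all genes. The log2 difference of both drought levels pooled against control was -0.86 ± 0.23 (edgeR unadjusted p = 0.00481, adjusted p = 0.318).

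PPDK needs a supply of pyruvate and an export of PEP from the chloroplast, and its side products AMP and pyrophosphate are removed by adenylate kinase and pyrophosphatase. PEP/phosphate translocator 2 (SORBI_3004G353100) had 348 ± 41.8 FPKM in the control, 239 ± 72.6 in mild drought and 265 ± 72.9 in severe drought. Adenylate kinase 2 of the chloroplast (SORBI_3007G009200) had 634 ± 87.96, 467 ± 98.7 and 664 ± 219 FPKM in the same order, and soluble inorganic pyrophosphatase 6 (SORBI_3004G311100) 135 ± 55.1, 105 ± 27.2 and 119 ± 49.7 FPKM. The triose phosphate/phosphate translocator (SORBI_3003G002300), which exports sugar phosphates from the chloroplast, had 722 ± 96.3 FPKM in the control, 616 ± 123 in mild drought and 912 ± 347 in severe drought (SD, n = 3 each). None of these differences passed the test.

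Enolase makes PEP in glycolysis. The 2 most abundant genes of the enolase and pyruvate kinase list, both described as enolase 1, lie close together on chromosome 10. SORBI_3010G026925 (2161473 to 2166435) had 78.8, 107 and 87.2 FPKM in severe drought, against 53.5, 46.3 and 65.4 in the control (log2 of scaled counts 1.05 ± 0.40, edgeR adjusted p = 0.529). SORBI_3010G027000 (2169134 to 2174076) had 98.01, 164 and 100.1 FPKM, against 105, 96.5 and 74.5 in the control (0.71 ± 0.40). In FPKM the groups did not overlap for the first gene and overlapped for the second. In scaled counts every severe drought library was above every control library for 2 of the 16 tested genes of this list. These were the enolase 1 genes named here. Such a separation in this direction held for 7.64% of all genes.

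Genes with a profile like each of the 3 were sought among 11099 genes with a named protein and at least 5 CPM. Likeness was the root mean square difference of log2 CPM over the 9 libraries, after each gene was centred on its own mean. For PPDK1 the nearest gene was sucrose-phosphate synthase (SORBI_3003G403300, chromosome 3, 71114880 to 71120454), an enzyme of sucrose synthesis, at 0.178, where the median over genes was 0.814. It was followed by a PDX1.1-like subunit of pyridoxal phosphate synthase (SORBI_3002G005600, 0.196) and a TLC domain protein (SORBI_3001G044000, 0.224). All 3 had their lowest level in mild drought 2 and their next lowest in control 3, as PPDK1 did. They were picked for likeness over these same libraries, so this follows from the choice and is no separate result.

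For PEPC3 the nearest genes were a sugar kinase-like gene (SORBI_3001G289500, 0.144), a chloroplast potassium efflux antiporter (SORBI_3008G173800, 0.166) and a chloroplast pentatricopeptide repeat protein (SORBI_3001G006000, 0.167), with a median of 0.62 over genes. Sucrose-phosphate synthase had 446, 768 and 406 CPM in severe drought and 440, 437 and 230 CPM in the control. The sugar kinase-like gene had 200, 302 and 160 CPM in severe drought and 143, 138 and 129 CPM in the control. For PEPC2 the nearest were a CRINKLY4-like receptor kinase (SORBI_3008G038200, 0.0885), a quinone reductase FQR1 (SORBI_3003G319700, 0.107) and a TBC1 domain protein (SORBI_3003G347300, 0.13), with a median of 0.501. All 3 were highest in mild drought 2, which again follows from the choice by profile.

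**Figure D5:**
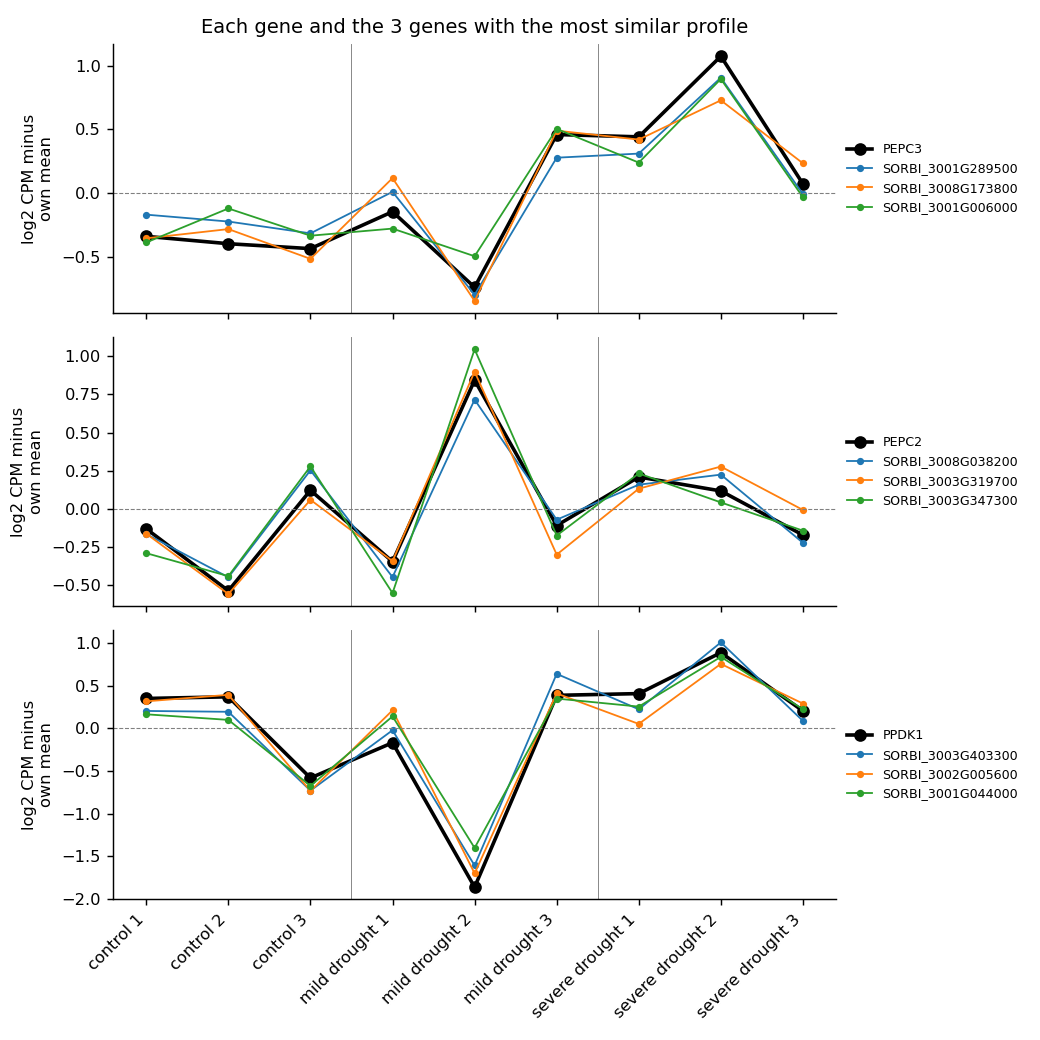
log2 CPM of PEPC3 (top), PEPC2 (middle) and PPDK1 (bottom) in the 9 libraries, each centred on its own mean (black), with the 3 genes of most similar profile (coloured). Vertical lines part control, mild drought and severe drought. PPDK1 and its neighbours dip in control 3 and mild drought 2, and PEPC2 and its neighbours peak in mild drought 2. The neighbours were chosen by profile, so these shared features follow from the choice.

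Within 20 kb of the 3 loci there were 5 lncRNA transcripts, all with few counts. The nearest, LINC7517 (chromosome 9, 48715194 to 48724375), lies 1602 bases before the PPDK1 locus in the direction of lower coordinates. It had 28, 47 and 38 counts in control 1 to 3, 76, 28 and 55 in mild drought and 31, 49 and 29 in severe drought, and the groups overlapped. Of the other 4, 3 had at most 14 counts in any library and 1, antisense to a gene on the same side of PPDK1, had 28 to 156.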

How the data were processed

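Per the file headers the deposited files hold read counts per gene and per lncRNA transcript, and FPKM values for both, with 1 column per library. The submitters' processing notes list STAR, StringTie 1.3.3b and HISAT2 2.0.4 with no roles; the labels do not say how the authors counted multiply matching reads. The authors deposited count values that were whole numbers, without normalization; the deposited FPKM values are scaled by gene length and library size. FPKM was used for levels and counts for tests.

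The 34366 of 44775 count entries that are in the mRNA FPKM table were filtered with filterByExpr (22080 genes tested), TMM-scaled (factors 0.807 to 1.12) and tested with edgeR 4.0.16 in R 4.3.3 with Benjamini-Hochberg adjustment. In counts simulated for mild drought against control, 200 genes were changed. The test recovered 0% of them at 2-fold and 62% at 4-fold, so a gene that was not called may still differ. Severe drought was not simulated, and the changed genes were not chosen to match the level of PEPC3. The SE is the absolute log2 difference divided by the square root of F, and intervals are at 95%. DESeq2 1.42.0 and limma 3.58.1 served as alternatives. Within-library ratios were tested by exact permutation. The 3 genes and the lists were chosen with earlier results of these data known. Named genes were those 3, all genes of both families and their modifying proteins, and the 2 most abundant of each further list. The 3 of closest profile and any that passed were named as well. Both named genes of alanine aminotransferase 2 lie outside this rule. List names were matched in the deposited Swiss-Prot protein names; 2 bifunctional enolase-phosphatases matched the enolase list.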

Additional observations from a re-analysis of the deposited data

How the results depend on the processing

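Each value of PEPC3, PEPC2 and PPDK1 was recomputed under the alternatives, 210 values in all. None was called, with a lowest adjusted p of 0.186 (PEPC3, severe drought, DESeq2), 193 kept their sign and 17 did not. By setting, PEPC2 in severe drought against control was -0.0012 with library totals, -0.062 in limma on log2(FPKM + 1), filtered or not, and -0.066 with a pseudocount of 0.1. PPDK1 in pooled drought against control was -0.0016 with upper-quartile scaling, -0.13 with library totals, and -0.22 in each limma fit. In that comparison upper-quartile scaling moved the median of all genes by -0.011 and library totals by -0.11. The cause was not tested.

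Leaving out 1 library gave ranges of -0.022 to 0.58 (PEPC3), -0.067 to 0.61 (PEPC2) and -0.89 to 0.027 (PPDK1) in mild drought against control. In severe drought against control they were 0.66 to 1.18, 0.06 to 0.38 and 0.17 to 0.57. In severe against mild drought they were 0.33 to 1.00, -0.39 to 0.28 and 0.39 to 1.31, and in pooled drought 0.48 to 0.78, 0.08 to 0.47 and -0.23 to 0.22. The ratio of PPDK1 to PEPC3 stayed on 1 side of 0 (-1.14 to -0.49 in mild, -0.76 to -0.31 in severe and -0.95 to -0.48 in pooled drought). The PEPC3 family share in mild drought ranged from -0.308 to 0.732 percentage points.

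Genes called by edgeR numbered 0 to 1 without 1 library in mild and in pooled drought. DESeq2 called 208, 337, 23 and 419 genes in mild, severe, severe against mild and pooled drought. Limma on log2(FPKM + 1) called 2 in mild and 6 in pooled drought, with a pseudocount of 0.1 it called 2 and 2, and edgeR on the 2 groups alone called 2 in severe drought. Same-numbered libraries did not deviate together (r from -0.374 to 0.371), so the labels' numbers were not taken as pairs. With the replicate block the log2 difference of PEPC3 in severe drought was 0.98 and 0 genes were called in any comparison. Relative counting error was at most 3.53% (PEPC2), against a 3.08-fold range of that gene over the 9 libraries.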
